A study of Mus musculus with 6 samples.

Results

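The genes described here encode subunits, inhibitors and feedback regulators of NF-κB, and 10 were listed, namely Rela, Relb, Nfkb1, Nfkb2, Nfkbia, Nfkbie, Nfkbiz, Bcl3, Tnfaip3 and Ikbke. A gene entered when a probe of the authors' value table carried its symbol in the platform annotation. This held for 6 of the 10 genes, each with 1 probe, among the 7807 genes with a named probe that was tested. Nfkb1, Bcl3, Tnfaip3 and Ikbke were not analysed here. RNA came from TC-1/A9 cells treated with IFNγ and from TC-1/A9 cells left untreated, with 3 arrays in each group. TC-1/A9 is an MHC class I-deficient mouse tumour line on the C57BL/6 background, recovered from tumours that TC-1 cells formed in immunized mice, and TC-1 in turn was made from lung cells transformed with the human papillomavirus oncogenes E6/E7 and an activated human ras. The labels give 50 U/ml of IFNγ and both labels and methods give 24 h of treatment, whereas the methods state a higher dose for the arrays. All arrays thus come from 1 cultured line at 1 time point, and the study calls the replicates biological, without detail on how the cultures were kept apart, so p-values measure the spread between these samples.

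NF-κB is a family of transcription factors that work as dimers of Rel proteins. In resting cells IκB proteins hold the dimers in the cytosol, until IκB kinases mark the inhibitors for degradation and the dimers enter the nucleus. Several of the genes switched on there encode the inhibitors themselves, so that the transcripts of Nfkbia and its relatives serve as a readout of the pathway in many cell types. IFNγ signals mainly through JAK kinases, and the GAS element is a promoter sequence through which it acts. Some promoters, such as that of Irf1, hold a GAS element beside a κB site.

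The promoters of Nfkb2, Nfkbia and Nfkbie carry κB letters, and that of Nfkb2 also carries GAS letters identical to those in Irf1. These stretches are shown beside those of Irf1 and Cxcl10, target genes that rose after IFNγ. RefSeq promoter windows (build GRCm38.p6) run from 250 bases before to 50 bases after a transcription start, and 7 of the 10 genes had at least 1 window, 10 windows in all. Both strands were searched for the κB consensus, for the GAS letters TTCNNNGAA and for the ISRE core (TTTC, any 2 bases, TTTC). The κB consensus was read as GGG, A or G, any base, A or T, 2 bases that are C or T, and CC. Of the 10 windows, 7 held the κB consensus, 1 held GAS and 0 held the ISRE core, against 4.51%, 8.3% and 3.44% of all 32851 windows. Of the 10 windows, 3 belong to Nfkb2, and all 3 are among the 7 with the κB consensus. Of these 3 windows, 2 overlap and share 1 κB site, which is counted in both and is the only match of 1 of them. The 7 windows are therefore not 7 separate finds. The κB consensus was found in Nfkb2, Nfkbia, Nfkbie, Tnfaip3 and Bcl3 and not in the windows of Rela and Ikbke. The window of Irak2, a pathway gene that also rose after IFNγ, held no match to any of the searched letters. Usp18, which rose as well, had no window, and Cx3cl1, a further risen target, was not searched. A match of letters is a description of the window and shows no binding. Each stretch reads 5′ to 3′ on the strand of the gene, with matches in capitals (Nfkb2 and Irf1: GAS first, κB after it; Nfkbia and Nfkbie: κB; Cxcl10: ISRE core first, then κB).
Nfkb2, chr19:46304587-46304736, plus strand: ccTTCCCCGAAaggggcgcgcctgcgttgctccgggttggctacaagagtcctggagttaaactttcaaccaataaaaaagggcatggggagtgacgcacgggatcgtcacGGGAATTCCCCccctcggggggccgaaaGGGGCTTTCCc
Nfkbia, chr12:55492648-55492747, minus strand: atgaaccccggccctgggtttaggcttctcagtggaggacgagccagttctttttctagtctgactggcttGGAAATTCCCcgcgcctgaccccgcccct
Nfkbie, chr17:45555550-45555649, plus strand: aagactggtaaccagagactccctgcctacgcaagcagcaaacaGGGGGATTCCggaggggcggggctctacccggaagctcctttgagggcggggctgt
Irf1, chr11:53769914-53770013, plus strand: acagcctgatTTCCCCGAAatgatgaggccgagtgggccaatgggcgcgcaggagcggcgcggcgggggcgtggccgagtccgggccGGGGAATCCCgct
Cxcl10, chr5:92348980-92349109, minus strand: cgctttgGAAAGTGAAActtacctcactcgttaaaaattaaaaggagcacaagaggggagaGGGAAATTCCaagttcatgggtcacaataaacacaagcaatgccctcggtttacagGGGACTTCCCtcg
The GAS letters TTCCCCGAA lie 148 to 140 bases before 1 of the starts of Nfkb2 and 90 to 82 bases before 1 of the starts of Irf1. In Nfkb2 the first capital stretch after GAS joins overlapping κB matches of both strands.

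The arrays correlated closely in log2 signal and responded to IFNγ. IFNγ arrays detected 12067 to 12423 probes and untreated arrays 11504 to 12404 (detection p up to 0.01). The median intensity was 48.7 to 55.4, highest on untreated replicate 1. Log2 signals correlated at r of 0.989 to 0.995 among IFNγ arrays and 0.994 to 0.995 among untreated arrays, with IFNγ replicate 3 giving the lowest values. Of 16 genes that IFNγ induces in most cells, 14 were tested and called higher. Of these, 7 were detected on no untreated array and so passed the detection filter through the IFNγ arrays alone, with rises of at least 1.37-fold to at least 53.5-fold. The other 7 were detected on 1 or more untreated arrays and rose by 1.91 to 6.72 on the log2 scale. This check list was chosen with earlier results of these data known, and the study itself reports several of its genes as raised on these arrays. Its calls therefore describe the arrays and are no independent evidence. None of 12 epithelial markers had a named tested probe, so epithelial identity was not checked. Of 10 mesenchymal markers 5 had one, of which the brightest were Vim, with a mean log2 signal of 13.28 after IFNγ and 13.20 in untreated cells, and Sparc, with 11.80 after IFNγ and 11.98 in untreated cells. Of 12 leukocyte markers 2 had a named tested probe, Cd68 and Csf1r, and their summed intensity was 131 to 151 on IFNγ arrays and 136 to 173 on untreated arrays, near the background light of the arrays. None of the mesenchymal, leukocyte and endothelial markers tested was called.

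None of the 6 measured NF-κB genes passed the test after IFNγ. With limma, 0 genes were called in either direction at an FDR below 0.01 over 13545 probes, where 1.33% of all tested genes were called higher and 0.0256% lower. By its unadjusted p, 1 of the 6 genes lay under 0.05, Nfkbiz, and 8.49% of all tested genes did so as well. Of the 6 changes 3 were positive and 3 negative, with a median of -0.01 on the log2 scale, against -0.02 over all tested genes. The 95% intervals of the 6 changes, taken gene by gene, ran between -0.42 and 0.63 on the log2 scale. In fold terms they reached 1.34-fold lower for Relb and 1.54-fold higher for Nfkbiz. These are intervals of the normalized signals without background correction, which understate changes of dim probes such as those of Nfkb2 and Nfkbie. With neqc background correction the errors were wider. The change was then 0.08 (SE 0.16) for Nfkb2, 0.17 (SE 0.17) for Nfkbie, -0.22 (SE 0.14) for Relb and 0.45 (SE 0.16) for Nfkbiz. The signals come from whole cultures, in which fewer expressing cells and less RNA per cell cannot be told apart.

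**Figure D1:**
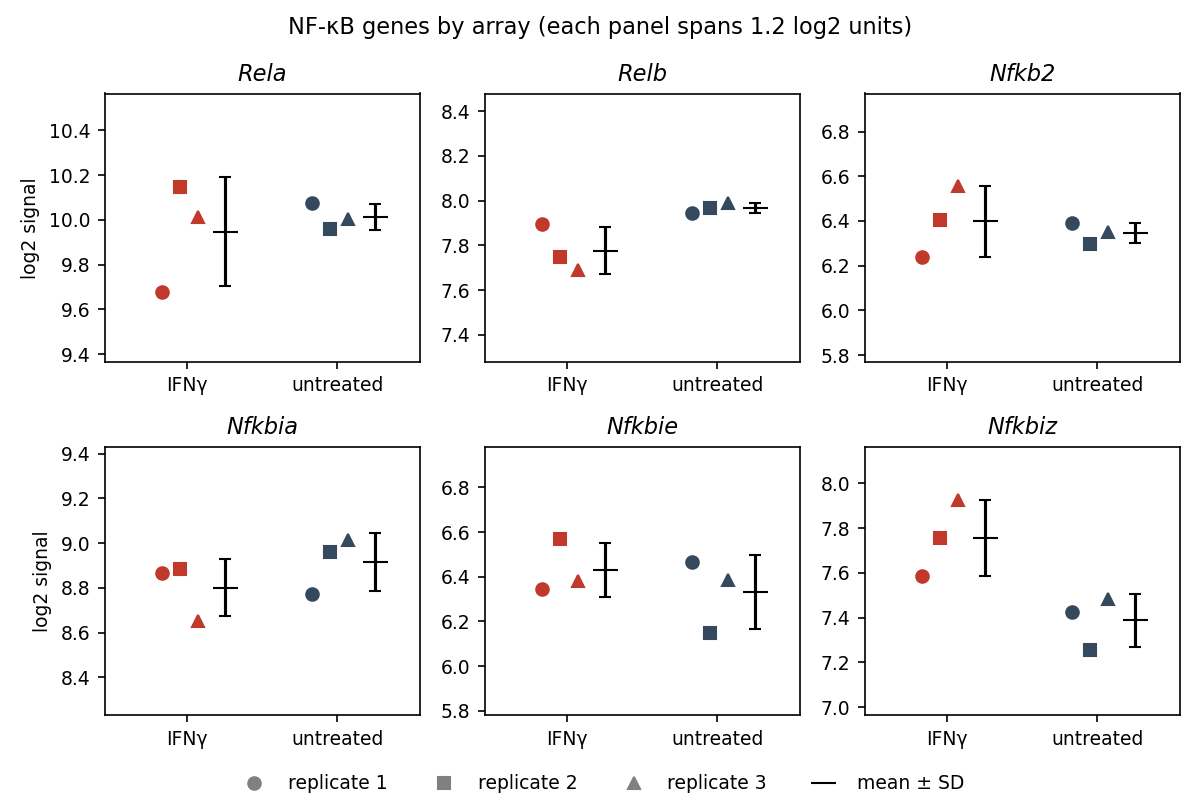
Normalized log2 signal of the 6 measured NF-κB genes on each array, with IFNγ arrays on the left and untreated arrays on the right of each panel; points are arrays, horizontal ticks and bars are mean ± SD (n = 3). Only in Nfkbiz do all 3 IFNγ arrays lie above the untreated arrays, and only in Relb do all 3 lie below them, by small margins in both.

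Among the subunits, Rela encodes p65, which carries the transactivation domain of the canonical dimer. Its log2 signal was 9.68, 10.15 and 10.01 on IFNγ arrays 1, 2 and 3, against 10.07, 9.96 and 10.00 on untreated arrays 1, 2 and 3. The groups overlapped, and IFNγ replicate 1 was the lowest of the 6 arrays. The means were 9.95 ± 0.24 after IFNγ and 10.01 ± 0.06 in untreated cells (SD, n = 3 each), which put the IFNγ cells at -0.07 on the log2 scale (SE 0.13; limma adjusted p = 0.91). Without IFNγ replicate 1 this value was 0.07. Before normalization the bead intensity was 964, 943 and 906 on the IFNγ arrays and 1466, 982 and 884 on the untreated arrays. Untreated replicate 1 also had the highest median intensity of the 6 arrays. With 75th-percentile centring the change of Rela was -0.15 (limma adjusted p = 0.99), while the median over all tested genes was then -0.06.

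Relb encodes RelB, the subunit that pairs with p52 in the non-canonical pathway. It had log2 signals of 7.90, 7.75 and 7.69 after IFNγ and of 7.95, 7.97 and 7.99 in untreated cells. All 3 IFNγ arrays lay below all 3 untreated arrays, as in 7.26% of all tested genes, and the gap between the nearest arrays was small. The untreated arrays were close together, with means of 7.78 ± 0.11 after IFNγ and 7.97 ± 0.02 in untreated cells (SD, n = 3 each). The log2 fold change of -0.19 (SE 0.11, 95% interval -0.42 to 0.04) did not pass the test (adjusted p = 0.69 from limma).

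Nfkb2 encodes p100, which acts as an inhibitor until it is cut to p52. Its log2 signal of 6.24, 6.40 and 6.55 after IFNγ compared with 6.39, 6.30 and 6.35 in untreated cells, and the untreated values lay within the range of the IFNγ values. The probe was dim but detected on all 6 arrays, with a highest detection p of 0.0043. The change was 0.05 on the log2 scale (SE 0.11; limma adjusted p = 0.93), and was -0.03 without IFNγ replicate 3 and -0.04 with array weights. Irf1, whose promoter window holds the same GAS letters, rose by 2.80. Whether these letters bear on the change of either gene was not tested, and signals near background understate changes of Nfkb2.

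Of the inhibitors, Nfkbia encodes IκBα, the inhibitor that NF-κB itself induces within its negative feedback loop. It had log2 signals of 8.87, 8.88 and 8.65 after IFNγ and of 8.77, 8.96 and 9.02 in untreated cells. The groups overlapped, with IFNγ replicate 3 the lowest array. The means were 8.80 ± 0.13 after IFNγ and 8.92 ± 0.13 in untreated cells (SD, n = 3 each), which differ by -0.11 (SE 0.12, 95% interval -0.36 to 0.13), with a limma adjusted p of 0.83. Leaving out single arrays gave -0.04 without IFNγ replicate 3 and -0.19 without untreated replicate 1 as the ends of the range.

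Nfkbie encodes IκBε, another cytosolic inhibitor that takes part in the feedback. Its signals of 6.34, 6.57 and 6.38 after IFNγ and of 6.46, 6.15 and 6.39 in untreated cells overlapped. The probe was the only one of the 6 not detected on every array, with a detection p of 0.013 on untreated replicate 2. Its change was 0.10 on the log2 scale (SE 0.12, 95% interval -0.16 to 0.35), with a limma adjusted p of 0.86. The change lay between 0.0055 without untreated replicate 2 and 0.16 without untreated replicate 1.

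Nfkbiz encodes IκBζ, an atypical nuclear IκB protein that binds p50 and helps to switch on a set of secondary response genes. It was the measured NF-κB gene with the largest change. Its log2 signal was 7.59, 7.76 and 7.93 after IFNγ, against 7.42, 7.26 and 7.48 in untreated cells. All 3 IFNγ arrays lay above all 3 untreated arrays, as in 6.44% of all tested genes. The means were 7.76 ± 0.17 after IFNγ and 7.39 ± 0.12 in untreated cells (SD, n = 3 each). The log2 fold change of 0.37 (SE 0.12, 95% interval 0.11 to 0.63) corresponds to 1.29-fold, and its unadjusted p was 0.0083. After adjustment over all probes it did not pass the test (adjusted p = 0.31 from limma, and 0.21 to 0.99 over the alternatives). For comparison, the middle 90% of the changes of all tested genes ran from -0.27 to 0.27, and the change of Nfkbiz lay between 0.28 and 0.45 when single arrays were left out.

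**Figure D2:**
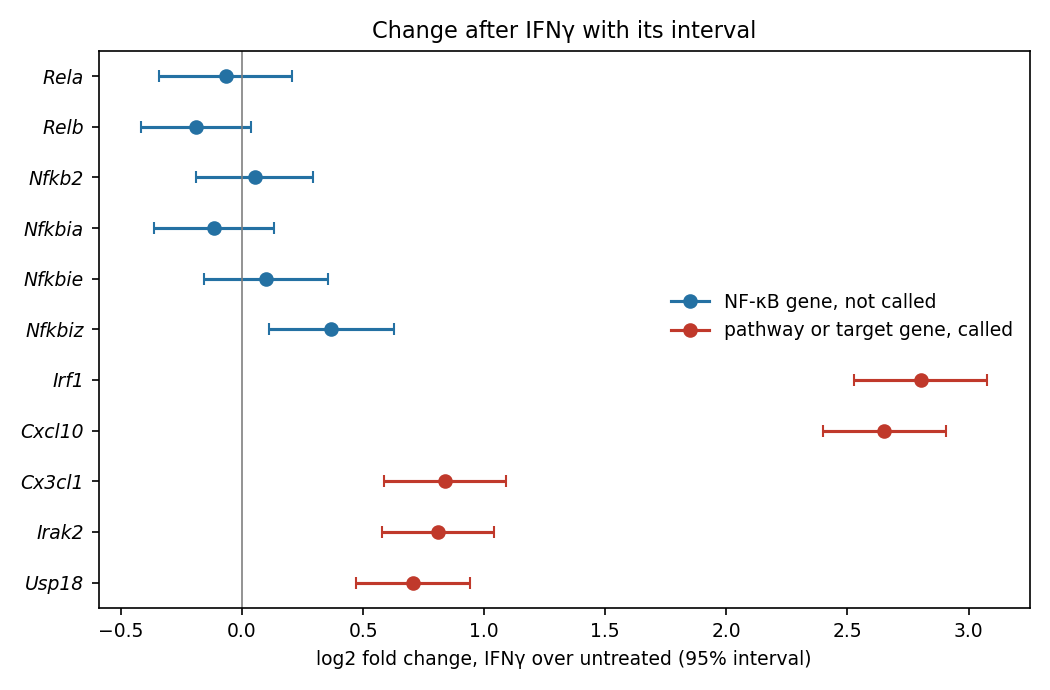
Log2 fold change (IFNγ over untreated) of the 6 measured NF-κB genes (blue) and of the 5 called genes of the pathway and target lists (red); bars are 95% intervals of the limma fit, and Usp18 was detected on no untreated array, so its fitted change is no bound. The blue intervals include 0 except that of Nfkbiz, and none reaches the values of Irf1 and Cxcl10. The interval of Nfkbiz, up to 0.63, overlaps those of Irak2, Cx3cl1 and Usp18.

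The wider pathway was described through lists of genes that are not among the 10, to be read against the shares called and the median of -0.02 over all tested genes. Other Rel and IκB family genes and partners numbered 12, of which 7 were tested and 0 were called by limma, with changes from -0.22 to 0.26 and a median of -0.03 on the log2 scale. The brightest of them were Ppp4c, a phosphatase subunit, with a change of -0.03 (adjusted p = 0.96), and Commd1, a factor that promotes the degradation of nuclear p65, with -0.22 (adjusted p = 0.69). At an unadjusted limma p under 0.05, counted in both directions together, there were 0 of these 7 genes. Of the lists described next there were 6 of the 22 activation genes, 1 of the 13 restraint genes and 9 of the 20 targets. Of all tested genes 8.49% met this. The lists were chosen with earlier results of these data known, so these counts are no independent evidence.

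Of 35 adaptors, kinases and ubiquitin ligases that switch NF-κB on, 22 were tested, 1 was called higher and 0 lower, and the median change was 0.09. The gene called was Irak2, a kinase-like adaptor downstream of Toll-like and IL-1 receptors. Its log2 signal was 9.61, 9.46 and 9.49 after IFNγ, against 8.60, 8.77 and 8.75 in untreated cells, without overlap. Its log2 signal rose by 0.81 (SE 0.11; limma adjusted p = 5.61e-04), and by 0.55 on its other probe, which was not called (adjusted p = 0.040). With 75th-percentile centring Irak2 was not called either (adjusted p = 0.039, and 9.59e-08 to 0.039 over the alternatives). Without IFNγ replicate 2 the count was 2, as Tnfrsf1a, a receptor for TNF, was then called through 1 of its 3 probes. This gene and Rbck1 (HOIL-1, of the linear ubiquitin ligase) were picked out after their values were seen, with changes of 0.51 (adjusted p = 0.12) and 0.47 (adjusted p = 0.12). The other probes of Tnfrsf1a rose by 0.48 (limma adjusted p = 0.18) and 0.52 (adjusted p = 0.029). Through the last of these probes Tnfrsf1a was called at an FDR below 0.05. The catalytic kinase subunit Ikbkb had a change of 0.01 (adjusted p = 0.99) and its scaffold Ikbkg of -0.11 (adjusted p = 0.81), both also chosen after their values were seen.

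Of 19 genes that restrain the pathway or its kinases, 13 were tested, 1 was called higher and 0 lower, and the median change was 0.16. Usp18, which removes ISG15 from proteins, was seen above background on all 3 IFNγ arrays and on none of the untreated arrays, with log2 signals of 6.41, 6.15 and 6.23 after IFNγ and of 5.50, 5.60 and 5.57 in untreated cells. It thus passed the detection filter through the IFNγ arrays alone. Usp18 rose at least 1.09-fold, measured against the lowest detected signal of each untreated array. The limma adjusted p of 0.0023 belongs to the fitted change against undetected signals, so the call of Usp18 is no independent evidence. It lost its call, and the list had 0 called genes, without IFNγ replicate 1 or without untreated replicate 1, 2 or 3 (adjusted p 0.016 to 0.030). The remaining genes of this list, among them the deubiquitinase Cyld (chosen after its values were seen) with a change of 0.18 (adjusted p = 0.71), were not called.

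Of 42 textbook NF-κB target genes, 20 were tested, 3 were called higher and 0 lower, and the median change was 0.02. Irf1, an interferon-induced transcription factor with targets of its own, had log2 signals of 12.53, 12.76 and 12.97 after IFNγ, against 10.04, 9.81 and 10.00 in untreated cells, and rose by 2.80 (SE 0.13; limma adjusted p = 6.44e-09). Cxcl10, a chemokine for activated T cells, had 10.31, 10.11 and 10.08 after IFNγ, against 7.35, 7.55 and 7.65 in untreated cells, and rose by 2.65 (SE 0.12; adjusted p = 5.60e-09). Both are also on the list of genes that IFNγ induces in most cells. Cx3cl1, a membrane-bound chemokine, had 7.55, 7.39 and 7.66 after IFNγ, against 6.83, 6.69 and 6.56 in untreated cells. In all 3 genes the groups were apart. Cx3cl1 rose by 0.84 (SE 0.12; adjusted p = 9.06e-04), but it lost its call when untreated replicate 3 was dropped (adjusted p = 0.017) and with 75th-percentile centring (0.021), and its adjusted p was 5.92e-08 to 0.021 over the alternatives. Irak2, Usp18, Irf1, Cxcl10 and Cx3cl1 all belong to the gene sets that the study chose on these arrays, so their direction is no independent evidence.

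The other 17 targets were not called. The chemokine Ccl2, picked out after its values were seen, had log2 signals of 6.98, 7.15 and 6.90 after IFNγ, against 6.61, 6.28 and 6.30 in untreated cells, and its change of 0.61 missed the threshold (adjusted p = 0.020 from limma). It was called, as was the chemokine Ccl7, when IFNγ replicate 3 was left out, which gave 5 called targets. At the other end, the early response gene Ier3 had a change of -0.54 (adjusted p = 0.33), with all 3 IFNγ arrays below all 3 untreated arrays and IFNγ replicate 3 the lowest. Sod2, a mitochondrial superoxide dismutase, had a change of -0.02 (adjusted p = 0.98), Vcam1, an adhesion molecule, of 0.30 (adjusted p = 0.56), and the survival gene Bcl2l1 of -0.01 (adjusted p = 0.99). These 4 genes were also chosen after their values were seen.

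**Figure D3:**
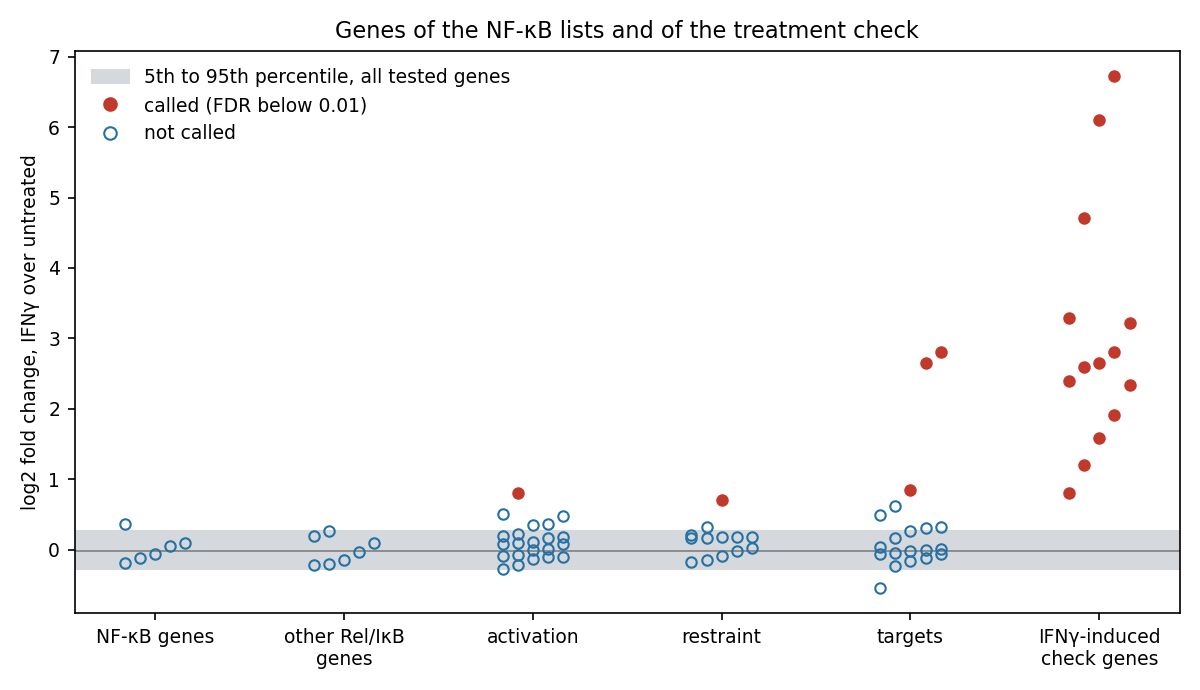
Log2 fold change (IFNγ over untreated) of each tested gene of the NF-κB lists and of the list that checks the treatment; filled red points were called at an FDR below 0.01, open blue points were not, and the grey band holds the middle 90% of all tested genes (-0.27 to 0.27). Fitted changes are drawn, also for Usp18 and the 7 check genes that no untreated array detected. All 14 check genes, listed because IFNγ induces them in most cells, are red. Red points of the other lists are 0 of 6 NF-κB genes, 1 of 22 activation, 1 of 13 restraint and 3 of 20 target genes. Over all tested genes, 1.33% were called higher and 0.0256% lower. Irf1 and Cxcl10 appear in the target and check columns.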

How the data were processed

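Illumina Mouse WG6 bead arrays measured RNA of 3 IFNγ-treated and 3 untreated TC-1/A9 cultures. From BeadStudio the authors exported and deposited a mean bead intensity for each of 45281 probes, not normalized between arrays and with a background setting not given in the sources used here, and beside it a detection p-value against negative controls. A second table deposited by the authors holds log2 values of 12421 probes (lumi and limma), and the largest difference between it and the quantile-normalized deposited intensities was 4.97e-14.

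Following the methods of the study, intensities were log2 transformed and quantile normalized, and a probe was kept if its detection p was 0.01 or less on any array. The 13545 probes kept were compared by limma 3.58.1 in R 4.3.3, using lmFit and eBayes without covariates, and called at a Benjamini-Hochberg FDR below 0.01. The fit was also run on simulated data with independent noise and no normalization step. Its outcome is not given here and no result rests on it. The platform annotation named 11180 of these probes, with symbols updated through RefSeq, and 2365 stayed unnamed. The brightest tested probe gives the values of a gene, and 1 called probe sufficed for a call unless another was called in the opposite direction. Intervals are 95% intervals of the moderated fit. The files give no depth, and the number of arrays limits the precision.

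Genes named are all 10 NF-κB genes and, from each pathway list, the called genes (at most 6, by size of change), or the 2 brightest if there were none; others are said to be chosen after their values were seen. The rule also asked for the genes most like each called NF-κB gene, of which there were 0. The members and lists were chosen with earlier results of these data known. Alternatives were neqc (offset 16) and normexp (offset 50) background correction, 75th-percentile centring, cyclic loess, the deposited value table, no filter, detection on all 6 arrays, a robust eBayes with a trend, weights per array, a replicate block, each array left out, an FDR below 0.05, a log2 change of 1 or more and the mean of a gene's probes. Replicate numbers were not used as pairs, except in the replicate block.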

Additional observations from a re-analysis of the deposited data

How the results depend on the processing

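No NF-κB gene was called under any of the 19 alternatives (0 higher and 0 lower), although Nfkbie was not tested where detection on all 6 arrays was required, and 0 of the other Rel and IκB genes were. Over these alternatives 3 values of single NF-κB genes changed sign: Nfkb2 was -0.045 with array weights and -0.026 without IFNγ replicate 3 (up to 0.13 with other single arrays left out), and Rela was 0.068 without IFNγ replicate 1 (down to -0.17 with others left out). The change of Nfkbiz ranged from 0.23 to 0.45 and that of Relb from -0.25 to -0.13. Called activation genes numbered 0 with 75th-percentile centring or a log2 change of 1 or more required, 2 at an FDR below 0.05 and 3 with array weights, and 1 to 2 with single arrays left out. Called restraint genes numbered 0 with 75th-percentile centring, with probes detected on all 6 arrays (which leaves out Usp18) or with a log2 change of 1 or more required, and 0 to 1 with single arrays left out. Called targets numbered 6 with array weights and 2 to 5 with single arrays left out. The cause of these shifts was not tested. Array weights gave 169 higher and 31 lower genes in all, against 104 and 2 without them. With the replicate number as a block, 0 NF-κB genes, 1 activation gene, 1 restraint gene and 3 targets were called, as without it. Deviations of same-numbered arrays from their group means correlated at -0.19, 0.04 and -0.02, against -0.16 to 0.21 for arrays of different number. With 3 arrays per group such values cannot tell whether same-numbered cultures were handled together, and the labels do not state it. The 3 arrays per group limit precision, and signals near background understate changes of Nfkb2 and Nfkbie.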
